A study of Macaca mulatta with 28 samples.

Results

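The genes described here are 30 genes of cholesterol synthesis and lipid transport, given as a list of names, a choice made with earlier results of these data known; the rule names genes and sets no threshold on a value. All 30 were found in the table of 15521 genes, in each of 28 brain libraries, and all 30 passed the filter on low values. Of these, 16 encode enzymes of the synthesis pathway, 5 its regulators, 8 proteins that carry or store cholesterol or lipoprotein, and 1 the enzyme by which neurons dispose of cholesterol. Besides their levels by drinking category and cohort, the question was whether they follow MBP, the gene of a major myelin protein, from animal to animal.

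Total RNA depleted of ribosomal RNA came from a tissue block that was dissected to contain the CeA, the amygdala's central nucleus, which takes part in stress and reward responses, of 28 male rhesus macaques, 1 library per animal. All 28 animals drank ethanol by choice and none was kept without it: after about 90 days of induction, a 4% (w/v) solution was on offer for 22 h a day, 7 days a week, for over 12 months. By drinking category, 6 animals were labelled very heavy (VHD), 7 heavy (HD), 5 binge (BD) and 10 low (LD). BD meant at least 2 g/kg on 55% of days or more, with a blood ethanol of 80 mg/dl reached in every year, HD at least 3 g/kg on 20% of days or more, and VHD a mean above 3 g/kg a day with 4 g/kg passed on 10% of days or more, while LD animals met none of these. By cohort, the mean age at induction was 8.24 years in cohort 4 (4 LD, 3 BD and 1 HD), 5.63 in cohort 5 (3 HD and 4 VHD), 4.18 in cohort 7a (3 LD, 1 BD, 2 HD and 2 VHD) and 5.69 in cohort 7b (3 LD, 1 BD and 1 HD). VHD and LD animals therefore met only in cohort 7a, and age, cohort and part of the category contrast cannot be told apart. Ages at the end were 9.98, 7.15, 5.7 and 7.18 years in cohorts 4, 5, 7a and 7b.

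Cholesterol is made from acetyl-CoA through mevalonate, squalene and lanosterol. Its enzymes are transcribed under the SREBP factors, which SCAP carries out of the endoplasmic reticulum when sterol is low and which the INSIG proteins hold back when it is high. The blood-brain barrier keeps plasma lipoproteins out, so brain cells make their own cholesterol: oligodendrocytes put most of it into myelin, astrocytes release it on APOE particles loaded by ABCA1 and ABCG1, neurons take those up through receptors such as LRP1, NPC1 and NPC2 pass it out of lysosomes, and CYP46A1 converts the surplus to a hydroxysterol that can leave the brain.

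Values are normalized reads, the authors' upper-quartile scaled reads over a gene's exons. The libraries held 1910514 to 25928489 reads (median 16444833), and BD replicate 1 was the shallowest. Positions are as the authors' exon table lists them, on a build not given in the sources used here, and its chromosome numbers differ from those of the RefSeq table for T2T-MMU8v2.0 in 20 of the 30 genes. Genes of myelin, astrocytes, neurons and microglia had reads in every library, as did PENK, GAD1 and GAD2 of the CeA and striatum. VHD replicates 3, 4 and 5 stood apart in CHAT, the enzyme of acetylcholine synthesis. It had 1450 to 1687 normalized reads there against at most 826 in the other libraries. MBP was 6459 to 10047 in the same 3, but HD replicate 1 (6901) and BD replicate 3 (6707) were above VHD replicate 5 (6459). The category differences of VHD and the calls on MBP and GFAP are also given without VHD replicates 3, 4 and 5. In bulk tissue, fewer cells of a type and less RNA per cell cannot be told apart.

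Per kilobase of listed exon, APOE, the main lipoprotein of the brain, was the most abundant of the 30, at 10648 ± 1259 normalized reads per kb (SD, n = 28). FDPS, which makes farnesyl pyrophosphate, came next at 1596 ± 347, then the receptor LRP1 at 1373 ± 287, ACAT2, a thiolase of the first step, at 1159 ± 244, HMGCS1, the HMG-CoA synthase, at 1016 ± 281, CYP46A1 at 1016 ± 259 and FDFT1, the squalene synthase, at 1012 ± 187. APOE was separated from FDPS by far more than either spread, whereas the spreads of HMGCS1, CYP46A1 and FDFT1 overlapped almost wholly. At the other end stood MVK, the mevalonate kinase, at 112 ± 24.4, and SOAT1, which esterifies cholesterol for storage, at 56.7 ± 8.88 normalized reads per kb. Spread across animals, as the coefficient of variation of normalized reads, was smallest in SCAP (9.88%) and APOE (11.8%) and largest in ABCA1 (31.9%), INSIG1 (31.9%) and SREBF1 (29.1%).

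**Figure D1:**
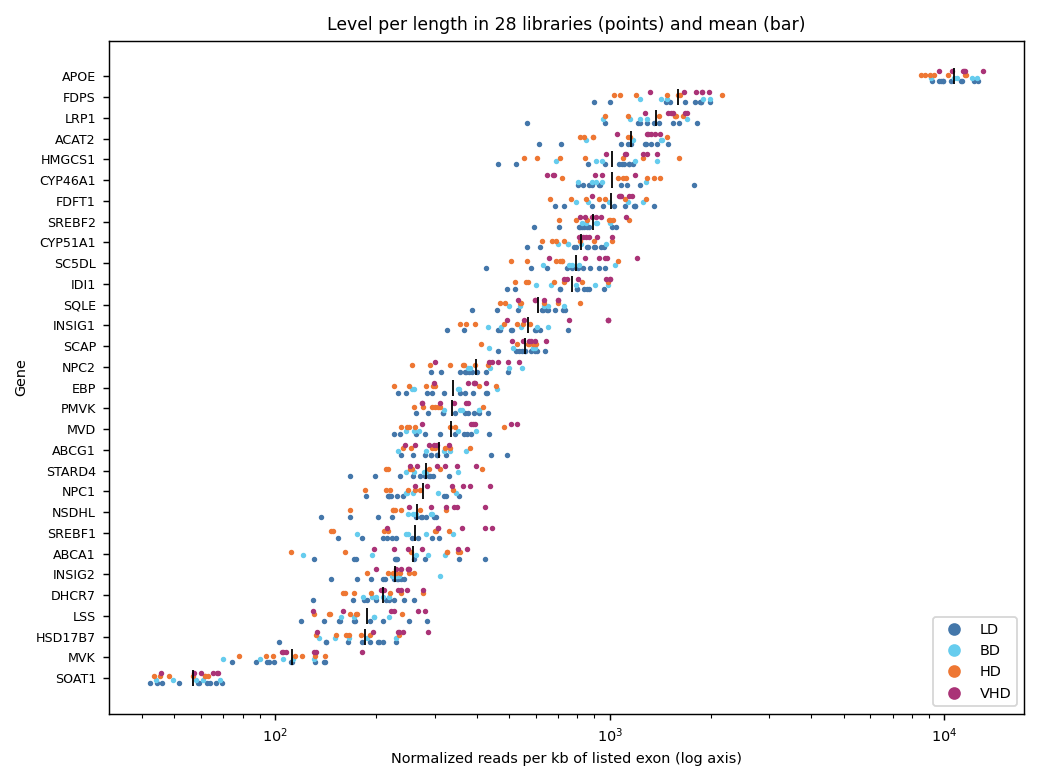
Level of each of the 30 genes in normalized reads per kb of listed exon (x axis, log scale); each point is 1 of 28 libraries, coloured by drinking category, and the black bar is the mean over 28. APOE lies near 10648 and SOAT1 near 56.7, and the 4 categories overlap in every gene.

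By drinking category, most of the 30 genes had their highest mean in VHD animals, but none passed a test between categories. VHD had the highest of the 4 category means in 24 of 30 genes and HD the lowest in 16, without a cohort term. Many of the 30 rose and fell together, such as HMGCS1 with FDPS (Pearson's r 0.942), so these are not 30 separate observations. For each of the 30, the range of VHD values overlapped that of LD values, as did those of HD and BD. Neither the order of means nor the overlap was counted over all genes. With cohort as a term, 0 of 30 genes passed the limma test of VHD against LD at an adjusted p under 0.05 (0% of 13022 genes did), and edgeR and DESeq2 on recovered reads also called 0 of the 30. At an unadjusted p under 0.05 there were 4 of 30, against 8.57% of all genes. The log2 difference was above 0 in 24 of 30 (52.5% of all genes), with a median of 0.16 against 0.01 over all genes. Within cohort 7a alone (2 VHD and 3 LD animals), 23 of 30 were above 0 and the median was 0.11. With VHD replicates 3, 4 and 5 left out, 19 of 30 were above 0 with a median of 0.11, and 0 of 30 had an unadjusted p under 0.05 (3.1% of all genes).

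Among the synthesis enzymes, 14 of 16 had a VHD against LD difference above 0, with a median of 0.20, and without VHD replicates 3, 4 and 5 again 14 of 16, with a median of 0.13. NSDHL, a sterol dehydrogenase of the late pathway (chromosome X, 146297190 to 146332625, 8 listed exons), ranged over 204 to 449 (median 399) normalized reads in LD, 248 to 482 (median 339) in HD and 373 to 631 (median 496) in VHD, and read 393, 437, 384, 434 and 372 in the 5 BD animals. All 6 VHD animals lay above the LD mean, yet 2 of them were below the highest LD animal. The difference was 1.48-fold (95% interval 1.12 to 1.95) with an adjusted p of 0.531. HMGCS1 (chromosome 5, 43959429 to 43985567, 10 listed exons) ranged over 2335 to 5909 (median 5431) normalized reads in LD, 2802 to 8113 (median 4240.2) in HD and 4905 to 6955 (median 5985) in VHD, with 5989, 6968, 4598, 4766 and 3491 in BD. HD held both some of the lowest values and the highest, while VHD was the narrowest category. Its VHD against LD difference was 1.41-fold (95% interval 0.965 to 2.06) with an adjusted p of 0.624.

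HSD17B7, a sterol reductase (chromosome 1, 137142104 to 137159730, 9 listed exons), ranged over 152 to 341 (median 277) in LD, 196 to 348 (median 247) in HD and 198 to 424 (median 346) in VHD, with 200.4, 342, 224, 278 and 246 in BD. MVD, which decarboxylates mevalonate diphosphate, ranged over 383 to 738 (median 555) in LD, 402 to 814 (median 442) in HD and 465 to 891 (median 664) in VHD, with 593, 675, 416, 440.2 and 454 in BD. For these enzymes the VHD range reached above the other categories, but its lowest animal lay among them. The log2 differences of VHD against LD were 0.30 for HSD17B7 and 0.35 for MVD, with adjusted p of 0.737 and 0.679. PMVK, the phosphomevalonate kinase, and MVK were the 2 enzymes with a difference below 0, −0.05 and −0.02. PMVK ranged over 343 to 563 (median 464) normalized reads in LD, 337 to 544 (median 391) in HD and 357 to 490.5 (median 424) in VHD, with 529, 527, 471, 462 and 415 in BD. MVK ranged over 141 to 268 in LD, 148 to 268 (median 218) in HD and 199 to 345 (median 227) in VHD, with 200.4, 172, 132, 215 and 248 in BD. In both, the categories overlapped almost wholly.

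The other 10 enzymes all had their highest category mean in VHD and, except DHCR7, their lowest in HD; SDs are over n = 10, 5, 7 and 6 for the categories in the order LD, BD, HD, VHD. In that order the means of ACAT2 were 1754 ± 431, 1849.8 ± 364, 1575 ± 373 and 1975 ± 189 normalized reads. IDI1 had 1793 ± 357, 1881 ± 382, 1654 ± 399 and 2081 ± 307. FDPS had 2122 ± 504, 2132 ± 431, 1929 ± 529 and 2338 ± 316. These enzymes carry the pathway from acetoacetyl-CoA to farnesyl pyrophosphate. For FDFT1, which commits farnesyl pyrophosphate to sterols, the means were 2167 ± 456, 2117 ± 403, 1969 ± 439 and 2247 ± 209. SQLE, the squalene epoxidase, had 1775 ± 331, 1782 ± 268, 1747 ± 369.6 and 1831 ± 193. LSS, the lanosterol synthase, had 465 ± 128, 473 ± 60.1, 422 ± 89.1 and 538 ± 149. SQLE had the smallest ratio of highest to lowest category mean of the 30 genes, 1.05. CYP51A1, the lanosterol demethylase, had 2325 ± 375, 2279 ± 304, 2213 ± 393 and 2511 ± 213. EBP, a sterol isomerase, had 342 ± 71.8, 343 ± 85.8, 324 ± 85.5 and 388 ± 43.9. These late enzymes differed little between categories against their spread. SC5DL, a sterol desaturase, had 2928 ± 638, 3089.6 ± 569, 2746 ± 674 and 3594 ± 692. DHCR7, a reductase of the last steps, had 522 ± 96.6, 515 ± 34.9, 519 ± 112 and 603 ± 64.9.

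Of the regulators, INSIG1, itself an SREBP target (chromosome 7, 181118210 to 181129910, 5 listed exons), had the largest ratio of highest to lowest category mean of the 30 genes, 1.70. It ranged over 927 to 2137 (median 1448) normalized reads in LD, 1017 to 1643 (median 1369.8) in HD and 1404 to 2812 (median 2476) in VHD, and read 1859.9, 1726, 1342, 1541 and 1227 in BD. VHD replicates 2, 3, 4 and 5 were the 4 highest of the 28 libraries, and VHD replicates 1 and 6 lay inside the LD range. The difference was 1.43-fold (95% interval 1.03 to 1.98), adjusted p 0.579. Without VHD replicates 3, 4 and 5, the log2 difference of INSIG1 moved from 0.52 to 0.17, and that of NSDHL from 0.56 to 0.41.

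SREBF1, the gene of the SREBP more tied to fatty acid synthesis (chromosome 17, 17828920 to 17856963, 20 listed exons), ranged over 770.3 to 1545 (median 1132) in LD, 732 to 1652 (median 1086) in HD and 1076 to 2220.3 (median 1667) in VHD, with 1227, 875, 1405, 1247 and 1698 in BD, and the categories overlapped. SREBF2, the SREBP that drives cholesterol synthesis, ranged over 2552 to 4494 (median 3586) in LD, 3035 to 4913 (median 4288) in HD and 3510.3 to 4824 (median 3860.0) in VHD, with 3952, 3928, 3565, 3647 and 4299 in BD. SCAP ranged over 1894 to 2620.3 (median 2272) in LD, 1677 to 2452 (median 2333) in HD and 2083 to 2633 (median 2354) in VHD, with 1772, 2092, 2444, 2412 and 2400.0 in BD. Neither set a category apart. The log2 difference of VHD against LD was 0.34 (95% interval −0.12 to 0.80) for SREBF1 and 0.08 (95% interval −0.20 to 0.35) for SREBF2. SCAP differed by −0.10 (95% interval −0.30 to 0.10) and INSIG2 by 0.06 (95% interval −0.21 to 0.32).

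Among the carriers, NPC1, the lysosomal membrane protein that hands cholesterol on (chromosome 18, 11985069 to 12040469, 25 listed exons), ranged over 874 to 1659 (median 1058) normalized reads in LD, 871 to 1585 (median 1168) in HD and 1227 to 2057 (median 1639) in VHD, with 1162, 1154, 1437, 1206 and 1625 in BD. Every VHD animal was above the LD mean, and 3 LD animals were above the lowest VHD animal. The VHD against LD difference was 1.35-fold (95% interval 1.03 to 1.78), adjusted p 0.578. NPC2, its soluble partner in the lysosome (chromosome 14, 136577386 to 136591351, 5 listed exons), ranged over 261 to 445 (median 335) in LD, 229 to 386 (median 325) in HD and 269 to 478 (median 406) in VHD, with 489, 342, 391, 447 and 337 in BD. BD and VHD lay somewhat above LD and HD in NPC2, with wide overlap.

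STARD4, which moves sterol between membranes inside the cell (chromosome 5, 108730477 to 108739884, 5 listed exons), ranged over 372 to 735 (median 612) in LD, 474 to 921 (median 569) in HD and 562 to 883 (median 694) in VHD, with 545 to 781 in the 5 BD animals. Its highest value was in HD replicate 1 and its lowest in LD replicate 8. APOE (chromosome 19, 39782393 to 39786407, 4 listed exons) ranged over 10849 to 14934 (median 12087) in LD, 10091 to 13773 (median 11049) in HD and 11445 to 15417 (median 13501) in VHD, with 12875, 10784, 14774, 12672 and 14362 in BD, a narrow band in every category. The VHD against LD log2 difference was −0.00 (95% interval −0.23 to 0.23) for APOE, 0.25 (95% interval −0.13 to 0.63) for STARD4 and 0.10 (95% interval −0.25 to 0.45) for NPC2.

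CYP46A1, the only gene of removal and known from neurons (chromosome 14, 162175201 to 162218696, 15 listed exons), had the lowest VHD against LD difference of the 30. It ranged over 1679 to 3726 (median 1939.7) normalized reads in LD, 1500.1 to 2945 (median 2328) in HD and 1349.7 to 2482 (median 1653) in VHD, with 1676, 1894, 1840.1, 1974 and 2669 in BD. The 3 lowest of the 28 libraries were VHD replicates 4, 3 and 5, the highest was LD replicate 8, and the categories overlapped. The VHD against LD difference was 0.741-fold (95% interval 0.555 to 0.989), adjusted p 0.583. Without those 3 VHD libraries the log2 difference was −0.18 in place of −0.43, and for NPC1 0.25 in place of 0.44.

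Marker genes also stood higher or lower in VHD animals, without passing the test: all 14 myelin genes were above 0 and all 8 CeA and striatal genes below 0 in the VHD against LD difference. Without VHD replicates 3, 4 and 5, 13 of 14 myelin genes were above 0, all 3 cholinergic genes were below 0, where they had been above it, and 2 of 8 CeA and striatal genes were above 0. Of 8 astrocyte genes 6 were above 0, with GFAP the highest at 0.73 and SLC1A2, a glutamate transporter, the lowest at −0.17. MBP ranged from 2568 to 6176 normalized reads in LD and from 3762 to 10047 in VHD, GFAP, the astrocyte filament gene, from 26396 to 60195 and from 37637 to 99937. The summed level of 14 myelin genes ranged over 50469 to 107027 in LD and 75517 to 144445 in VHD, that of 8 astrocyte genes over 167114 to 215023 and 177431 to 237375, that of 3 cholinergic genes over 121 to 6226 and 108 to 14178, and that of 8 CeA and striatal genes over 16339 to 62358 and 12579 to 32004. With MBP as a further term, the VHD against LD difference of NPC1 was 0.13 in place of 0.44 and that of CYP46A1 −0.18 in place of −0.43. NSDHL (0.43), INSIG1 (0.42) and HMGCS1 (0.53) moved less. Without LD replicate 5 these differences were 0.25 for NSDHL, 0.21 for INSIG1 and 0.12 for MVD, in place of 0.31, and INSIG1 was at 0.71 without VHD replicate 6. With all animals, all 16 enzymes were above 0 in that fit, as were 25 of the 30 genes (51.4% of all genes). There 0 of 30 genes passed (0% of 13021 genes) and 1 of 30 had an unadjusted p under 0.05, against 3.16% of all genes. The part of the astrocyte, cholinergic and CeA genes in the VHD differences was not tested.

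HD and BD animals had median differences from LD animals closer to 0 than VHD animals had. For HD against LD, 0 of 30 genes passed with limma (0% of 13022 genes) or edgeR and 0 of 30 had an unadjusted p under 0.05 (3.96% of all genes). The median log2 difference was −0.07 (−0.01 over all genes), with 7 of 30 above 0 (47.9% of all genes) and 23 below, and the smallest p belonged to APOE at −0.17 (95% interval −0.36 to 0.03), followed by NPC2 at −0.20 (95% interval −0.49 to 0.08), SCAP at −0.12 (95% interval −0.28 to 0.05) and PMVK at −0.14 (95% interval −0.39 to 0.11). Single animals moved these values: without HD replicate 1 they were −0.34 for NPC2, −0.04 for SCAP and −0.09 for PMVK, without HD replicate 5 PMVK was at −0.23, and without HD replicate 7 APOE was at −0.26. NPC2 was at −0.11 without HD replicate 6 and −0.13 without LD replicate 7. In the same contrast 13 of 14 myelin genes were below 0 (median −0.17), as were all 3 cholinergic genes, by −2.18 to −3.23. Of these, 0 passed with limma. MBP itself, without a cohort term, had a higher mean in HD, 4504 ± 1240 normalized reads (SD, n = 7), than in LD, 3807 ± 985 (n = 10). The mean summed level of the 14 myelin genes was 66768 in HD and 72990 in LD. The summed level in HD was 55004 to 89267 for the myelin genes and 27.1 to 1218 for the cholinergic genes, inside or below the LD range, and their part in the HD differences was not tested. For BD against LD, 0 of 30 passed with limma (0% of 13022) or edgeR, 1 of 30 had an unadjusted p under 0.05 (3.52% of all genes) and 21 of 30 were above 0 (46% of all genes), with a median of 0.07 against −0.01 over all genes. That gene was INSIG2, at 0.26 (95% interval 0.04 to 0.47) with an adjusted p that rounds to 1. INSIG2 (chromosome 2b, 13057425 to 13071408, 5 listed exons) read 778, 576, 579, 560.0 and 585 in BD and ranged over 367 to 607 (median 548) in LD, 469.5 to 648 (median 576) in HD and 501 to 629 (median 609) in VHD, and the highest BD value came from the shallowest library, BD replicate 1, without which the INSIG2 difference was 0.16. NPC2 (0.22, 95% interval −0.05 to 0.50), SREBF2 (0.16, 95% interval −0.06 to 0.38) and NSDHL (0.20, 95% interval −0.12 to 0.52) followed. SREBF2 was at 0.10 without LD replicate 3 and 0.24 without BD replicate 4, and NSDHL at 0.12 and 0.13 without LD replicates 2 and 8. The 3 contrasts share the LD animals. An F test over the 4 categories with limma or edgeR called 0 of 30 genes (0% of 13022), and 4 of 30 had an unadjusted p under 0.05 (9.28% of all genes): INSIG1, NSDHL, NPC2 and NPC1, with adjusted p of 0.482, 0.486, 0.524 and 0.529.

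**Figure D2:**
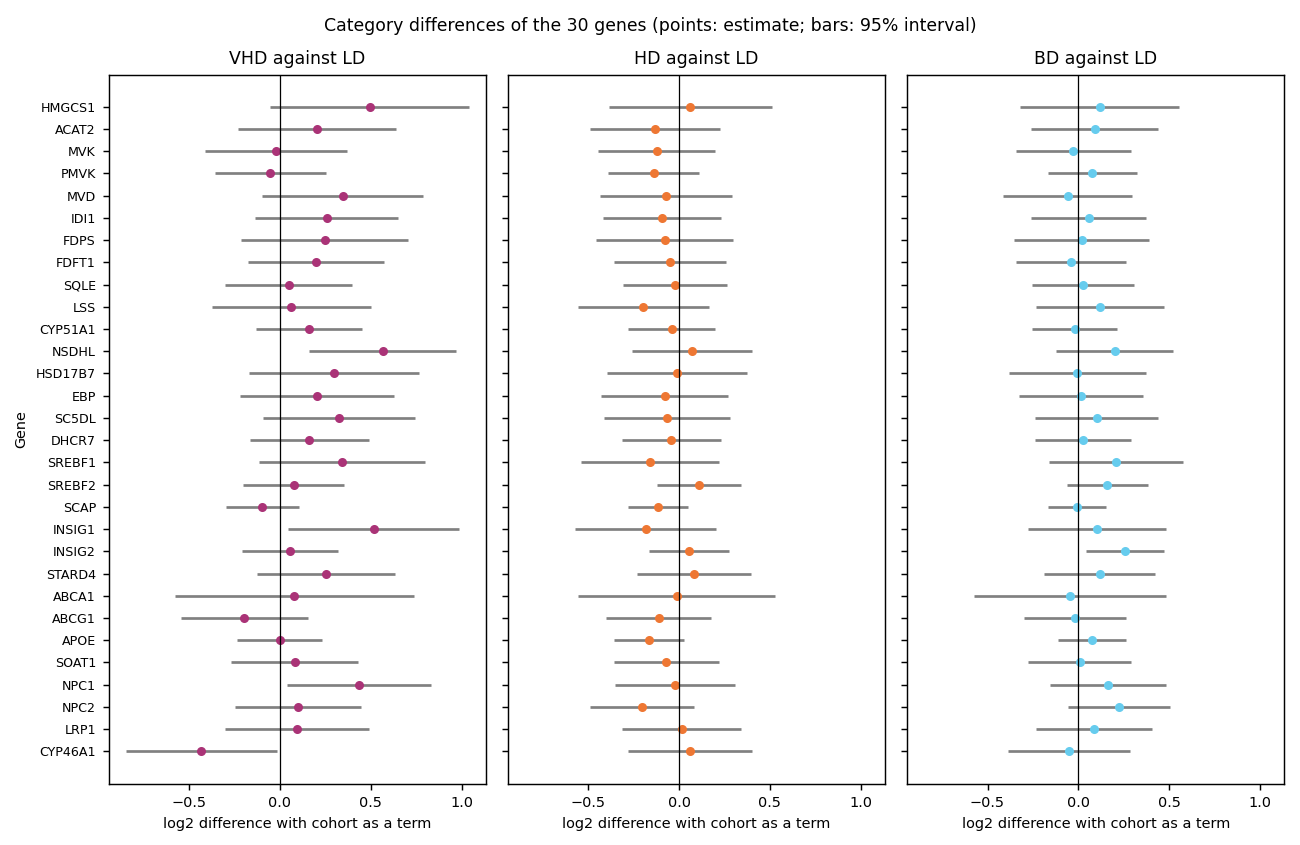
Log2 difference from LD of each of the 30 genes with cohort as a term, for VHD (left), HD (middle) and BD (right); points are limma estimates and bars 95% intervals. In VHD 24 of 30 points lie above 0, in HD 7 and in BD 21, and none passed the test over all genes.

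Between cohorts, with category as a term, 0 of 30 genes passed the F test of limma (0% of 13022) or of edgeR, and 3 of 30 had an unadjusted p under 0.05 (9.41% of all genes). LRP1, the large endocytic receptor for APOE particles (chromosome 12, 55389648 to 55475252, 89 listed exons), ranged over 8408 to 23061 normalized reads in cohort 4, 18928 to 25385 in cohort 5, 16906 to 22716 in cohort 7a and 18116 to 27187 in cohort 7b. By category LRP1 ranged over 8408 to 27187 (median 19716) in LD, 14409.6 to 24707 (median 23292) in HD and 18928 to 25385 (median 22889) in VHD, with 19297, 14234, 17092, 18359 and 25311 in BD. Cohort 4, the oldest at induction, held the lowest 4 values, and the ranges of all 4 cohorts overlapped. That cohort had the 3 shallowest libraries but also the deepest, LD replicate 3 (25928489 reads), where LRP1 was lowest. BD replicate 1, the shallowest, read 19297, and the part of depth was not tested. SCAP had means of 2086 ± 293, 2371 ± 164, 2351 ± 153 and 2363 ± 64.7 in cohorts 4, 5, 7a and 7b, SREBF1 1063 ± 285, 1593 ± 453, 1238 ± 319 and 1424 ± 247, and MVK 176 ± 42.8, 242 ± 56.4, 222 ± 26.2 and 217 ± 30.4 (SD; n = 8, 7, 8 and 5). The adjusted p of these 4 genes were 0.394, 0.463, 0.519 and 0.541.

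**Figure D3:**
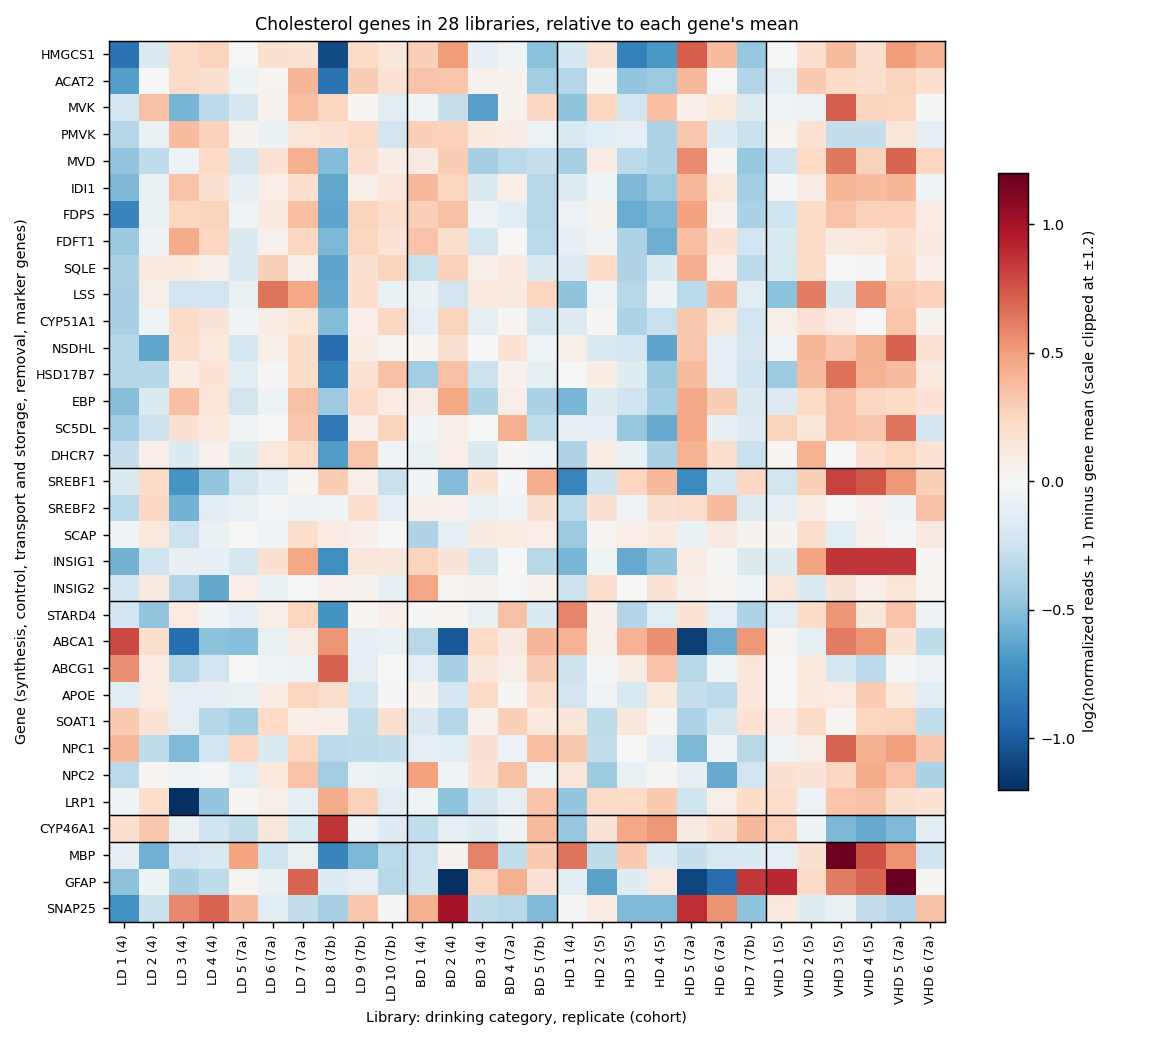
Log2 values of the 30 genes and of MBP, GFAP and SNAP25 (rows, by role) in 28 libraries (columns, by category, with the cohort in brackets), each relative to the gene's mean; colours are clipped at 1.2 either way. Most enzymes are low together in LD replicates 1 and 8 and HD replicates 3 and 4, and INSIG1 is high in VHD replicates 3 to 5.

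The cholesterol genes had a slope on MBP past the test about as often as all genes did. MBP ranged from 2568 to 10047 normalized reads over the 28 animals. In a fit with cohort as a term, the slope on MBP (log2 units of a gene per log2 unit of MBP) passed the test in 2 of 30 genes, against 7.3% of 13021 genes. The 2 were NPC1, which rose with MBP (4.21% of all genes did), and CYP46A1, which fell (3.1% did). The median slope of the 30 was 0.09 (0.01 over all genes), 19 of 30 were positive (52.3% of all genes), and 5 had an unadjusted p under 0.05, against 24.4% of all genes. For comparison, all 13 other myelin genes of a list of 14 passed, with a median slope of 0.72.

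NPC1 had the slope 0.59 (95% interval 0.39 to 0.78), adjusted p 0.00061. The animals with the lowest NPC1 (HD replicate 5 at 871 and LD replicate 3 at 874 normalized reads) had MBP of 3659 and 3769, and the animal with the highest (VHD replicate 3 at 2057) had the highest MBP, 10047. Pearson's r of the log2 values over 28 animals was 0.785 (permutation p = 1e-05, the smallest that 100000 resamples can give, adjusted p = 0.00159) and Spearman's rho 0.790 (adjusted permutation p = 0.00592). Pearson's r was 0.698 without the 2 animals farthest from the median MBP, VHD replicates 3 and 4, and 0.672, 0.979 and 0.655 within cohorts 4, 5 and 7a. Within cohorts, 60.8% of the variance of log2 NPC1 went with MBP.

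CYP46A1 had the slope −0.49 (95% interval −0.74 to −0.25), adjusted p 0.0132. LD replicate 8, the animal with the lowest MBP (2568 normalized reads), had the highest CYP46A1 (3726), and VHD replicates 3 and 4, the pair with the highest MBP, had 1409.9 and 1349.7. Pearson's r was −0.601 (permutation test, adjusted p = 0.0152), but the rank-based rho was −0.431 (permutation test, adjusted p = 0.203). The value of r was −0.465 without VHD replicates 3 and 4 and −0.610, −0.803 and −0.837 within cohorts 4, 5 and 7a. For cohort 7b, with 5 animals, no r was computed; the slopes in cohorts 4, 5, 7a and 7b were −0.36, −0.68, −0.59 and −0.16.

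Among the enzymes, NSDHL (0.38, 95% interval 0.10 to 0.66, adjusted p 0.0828) and HSD17B7 (0.33, 95% interval 0.03 to 0.62, 0.155) had the steepest slopes on MBP without passing. The earliest enzymes lay near 0: HMGCS1 at 0.10 (95% interval −0.29 to 0.48) and ACAT2 at 0.04 (95% interval −0.26 to 0.35), and MBP went with 1.05% of the variance of HMGCS1 within cohorts. STARD4 had a slope of 0.31 (95% interval 0.08 to 0.53; adjusted p 0.0888), NPC2 of 0.23 (95% interval −0.02 to 0.48), SREBF1 of 0.31 (95% interval −0.02 to 0.63) and INSIG1 of 0.33 (95% interval −0.03 to 0.69). The INSIG1 slope was 0.20 without VHD replicate 3 and −0.15 without VHD replicates 3, 4 and 5, where NSDHL had 0.25, HSD17B7 0.13, SREBF1 0.01, NPC2 0.12 and STARD4 0.22. The median r of the 30 with MBP was 0.12, and −0.01 without the pair of animals farthest from the median. By permutation 2 of 30 genes passed for r (8.79% of all genes) and 1 of 30, NPC1, for rho (1.9%). An r of at least 0.5 was reached by NPC1 and STARD4 (0.517, permutation test, adjusted p = 0.0528), 2 of 30 genes against 5.61% of all genes.

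Leaving out animals changed the calls more than the slope of NPC1, which was 0.55 to 0.61 with each animal left out in turn and 0.51, 0.62, 0.63 and 0.59 in cohorts 4, 5, 7a and 7b. Without VHD replicates 3, 4 and 5, the slope of NPC1 was 0.53 with an adjusted p of 0.165 and that of CYP46A1 −0.29 with an adjusted p of 0.885, 0 of 30 genes passed, and 5 genes of the whole table did. Without VHD replicate 3 alone, 1 of 30 passed (NPC1), and without LD replicate 5, the animal with high MBP among the low drinkers, 4 of 30 passed (NSDHL, STARD4, NPC1 and CYP46A1). With category as a further term NPC1 alone passed, and CYP46A1 had an adjusted p of 0.0637.

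SNAP25, a synaptic protein gene of neurons, gave slopes of opposite sign for enzymes and carriers. Its slope passed in 16 of 30 genes, against 36.9% of 13021 genes, 10 of them positive (17.4% of all genes) and 6 negative (19.6%). All 10 that rose with SNAP25 were synthesis enzymes, out of 16, and the median slope of the enzymes was 0.28 (−0.05 over all genes). Of the 8 carriers, 5 fell (ABCA1, SOAT1, ABCG1, NPC1 and APOE), with a median slope of −0.30, and the sixth gene that fell was SREBF1. Of these 16, NPC1 alone also passed with MBP.

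**Figure D4:**
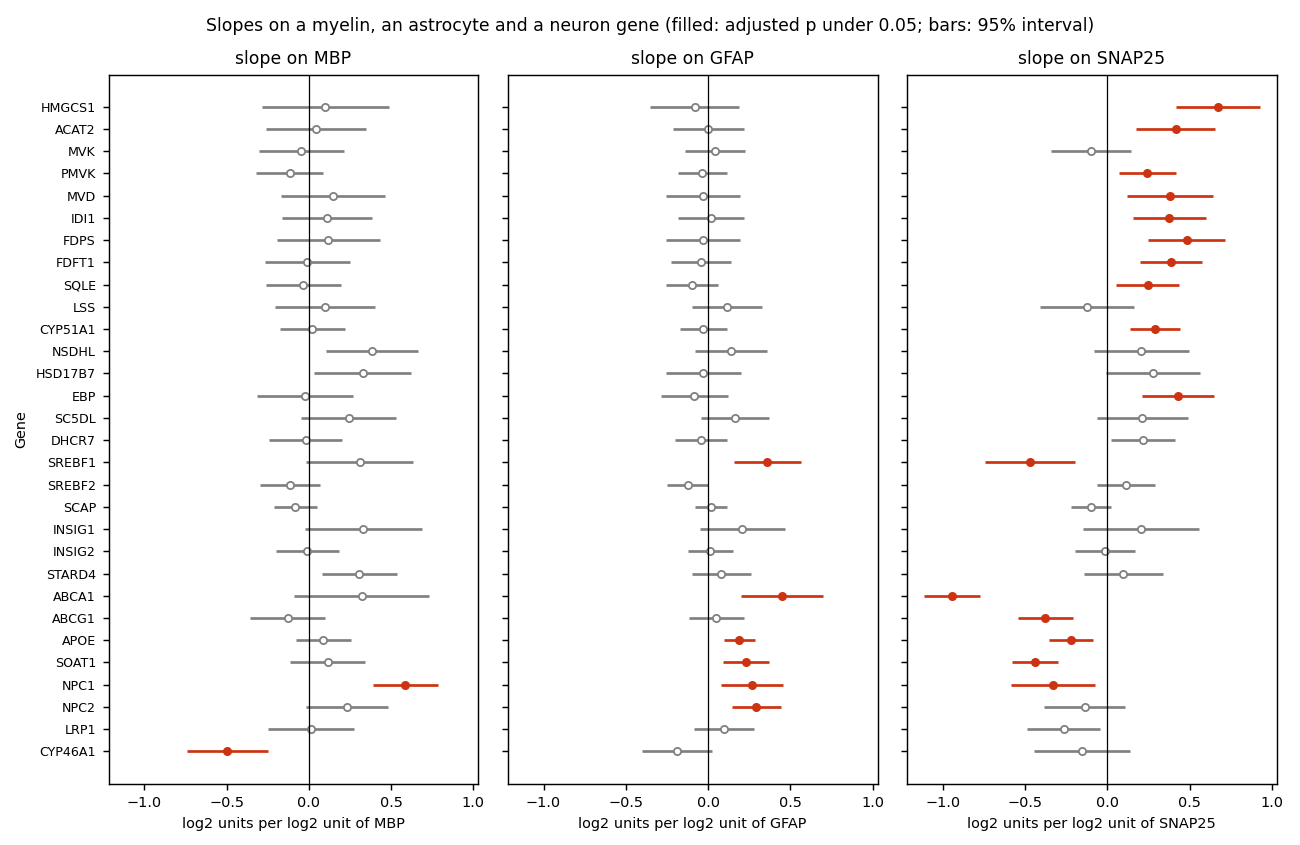
Slope of each of the 30 genes on MBP (left), GFAP (middle) and SNAP25 (right), in log2 units per log2 unit of the marker with cohort as a term; bars are 95% intervals and filled red points passed the test over all genes. With MBP 2 genes passed, with GFAP 6, and with SNAP25 16, where the enzymes (upper rows) lie mostly right of 0 and the carriers (lower rows) mostly left.

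HMGCS1 had the steepest positive slope on SNAP25, 0.67 (95% interval 0.42 to 0.93), adjusted p 0.000139. Its 2 lowest animals, LD replicates 8 and 1 (2335 and 2653 normalized reads), had SNAP25 of 14112 and 11166, and its highest, HD replicate 5 (8113), had 34051. FDPS (0.48), EBP (0.43), ACAT2 (0.41), FDFT1 (0.39), MVD (0.38), IDI1, the isopentenyl diphosphate isomerase (0.38), CYP51A1 (0.29), SQLE (0.24) and PMVK (0.24) also passed. The remaining 6 enzymes did not: their slopes were −0.10 for MVK, −0.12 for LSS, 0.21 for NSDHL, 0.28 for HSD17B7, 0.21 for SC5DL and 0.22 for DHCR7.

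Of the 16 called slopes, 16 had the same sign within cohort 4, 16 in cohort 5, 15 in cohort 7a and 16 in cohort 7b. Each fitted slope averages these within-cohort slopes, so shared signs are no separate support. The slopes of all 10 called enzymes were smallest in cohort 7a: the HMGCS1 slope was 0.29 there against 0.69, 1.35 and 1.15 in cohorts 4, 5 and 7b, and those of ACAT2 (0.00), IDI1 (−0.01) and CYP51A1 (0.03) lay near 0 there. The slopes of ABCA1 (−0.93), SOAT1 (−0.58), SREBF1 (−0.56), APOE (−0.37) and NPC1 (−0.37) in cohort 7a stood against −0.94, −0.44, −0.47, −0.22 and −0.33 over all animals, and ABCG1 had −0.18 there against −0.38. On SNAP25 17 of 30 passed without VHD replicates 3, 4 and 5, and the count over all genes in that fit is not given here. Without the 3 libraries under 8000000 reads, all of cohort 4, 10 of 30 passed, among 4104 genes of the whole table. The 10 were 5 enzymes (HMGCS1, FDPS, FDFT1, CYP51A1 and EBP) and SREBF1, ABCA1, ABCG1, APOE and SOAT1.

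ABCA1, the pump that loads cholesterol onto APOE (chromosome 9, 76412363 to 76560775, 50 listed exons), had the steepest slope of all 30 on SNAP25, −0.94 (95% interval −1.11 to −0.77), adjusted p 2.8e-09. It ranged over 1348 to 4359 (median 2382) normalized reads in LD, 1149.6 to 3682 (median 3366) in HD and 2038 to 3869 (median 2704) in VHD, with 2004, 1247, 2952, 2714 and 3328 in BD, and the categories overlapped. HD replicate 5 and BD replicate 2, the lowest 2, had SNAP25 of 34051 and 36785, and LD replicate 1, the highest, 11166. Its slope lay between −1.03 (cohort 4) and −0.66 (cohort 5) in the 4 cohorts.

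SOAT1 (chromosome 1, 187614961 to 187681657, 16 listed exons) had a slope of −0.44 (95% interval −0.58 to −0.30) on SNAP25, adjusted p 1.39e-05. Values of SOAT1 ranged over 321 to 527 (median 448) in LD, 329 to 479 (median 430.5) in HD and 347 to 510.1 (median 475) in VHD, with 377, 335, 441, 519.8 and 462 in BD, and the categories overlapped almost wholly. ABCG1, a further sterol pump (chromosome 7, 4372414 to 4469283, 19 listed exons), had −0.38 (95% interval −0.54 to −0.21), adjusted p 0.000658, and ranged over 821 to 1701 (median 1027) in LD, 827 to 1319 (median 1033) in HD and 839 to 1136 (median 1009) in VHD, with 970.0, 799, 1144, 1096 and 1283 in BD. Its highest animals were LD replicates 8 and 1, the 2 with the lowest HMGCS1. SREBF1 (−0.47), NPC1 (−0.33) and APOE (−0.22) also had slopes below 0, with adjusted p of 0.00729, 0.0398 and 0.00944. CYP46A1, known from neurons, had a slope of −0.15 (95% interval −0.44 to 0.14) on SNAP25 (adjusted p 0.412).

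**Figure D5:**
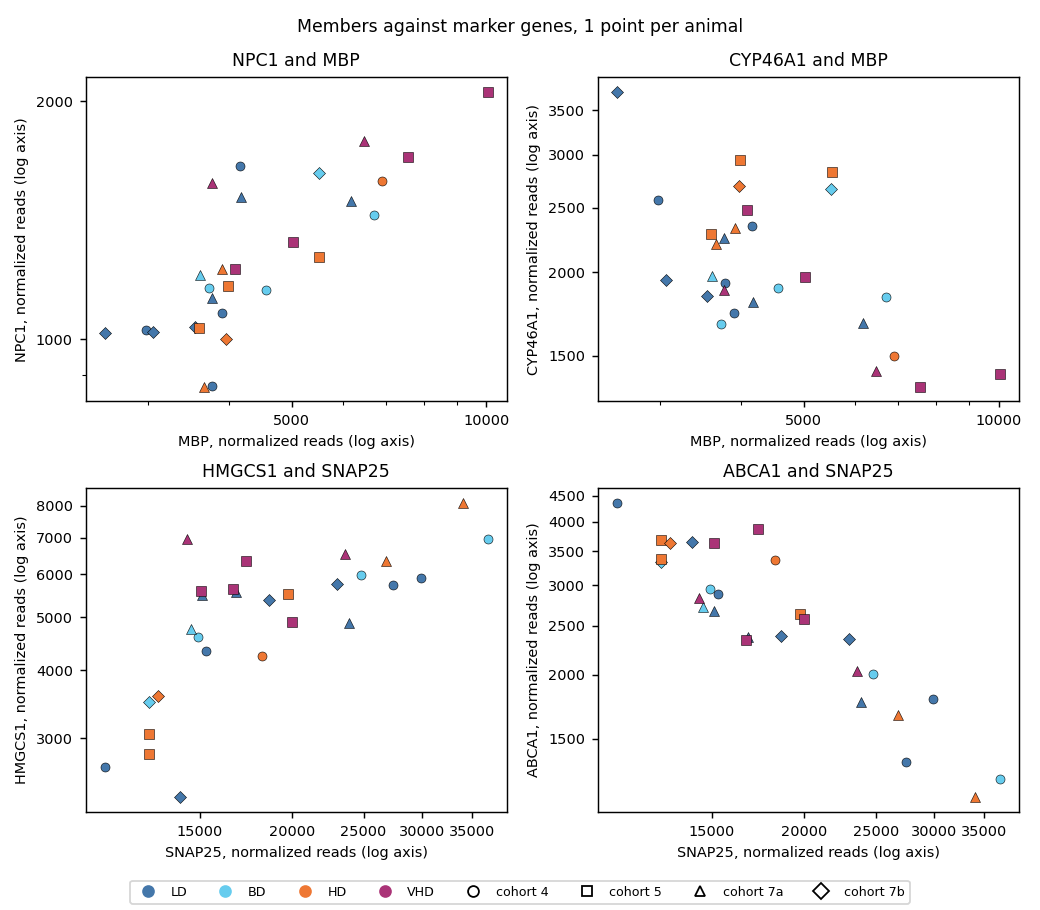
NPC1 and CYP46A1 against MBP (top) and HMGCS1 and ABCA1 against SNAP25 (bottom), in normalized reads on log axes; each point is 1 animal, coloured by drinking category and shaped by cohort. NPC1 rises from 871 to 2057 as MBP rises, CYP46A1 falls, HMGCS1 is lowest among animals with low SNAP25, and ABCA1 falls from 4359 to 1150 as SNAP25 rises.

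GFAP gave slopes past the test in 6 of 30 genes, near the 19.9% of 13021 genes that passed. All 6 were positive (11.1% of all genes passed with a positive slope). They were 5 of the 8 carriers and SREBF1, and no enzyme was among them. APOE, made mainly by astrocytes, had 0.19 (95% interval 0.10 to 0.29), adjusted p 0.00488, NPC2 0.29 (95% interval 0.14 to 0.44), ABCA1 0.45 (95% interval 0.20 to 0.70) and SREBF1 0.36 (95% interval 0.16 to 0.56), with adjusted p of 0.00588, 0.0101 and 0.0117. SOAT1 (0.23) and NPC1 (0.27) were the others. All 6 but NPC2 also passed with a negative slope on SNAP25. Pearson's r of the log2 values was −0.59 for GFAP with SNAP25, 0.39 for MBP with GFAP and −0.18 for MBP with SNAP25. The slopes on these markers are therefore not separate measurements. The 6 were positive in cohorts 4, 5 and 7a, and 5 of 6 in cohort 7b, the parts that the fitted slope averages. Without VHD replicates 3, 4 and 5 only APOE of the 30 passed (0.20, adjusted p 0.0276), among 1150 genes of the whole table. In that fit ABCA1 was at 0.47, NPC2 at 0.28 and SREBF1 at 0.27, with adjusted p of 0.0502, 0.0516 and 0.129. APOE and NPC2 passed without HD replicate 5, and ABCA1, APOE and NPC2 without VHD replicate 5. Counts over all genes are not given for the fits without 1 animal. All 3 cholinergic genes passed on GFAP (median slope 3.07) and on SNAP25 (median slope −2.87), and their part in the slopes of the 30 was not tested.

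A joint fit held all 3 markers and cohort at once. In it the slopes of NPC1 (0.53, 95% interval 0.34 to 0.72, adjusted p 0.00289) and CYP46A1 (−0.45, 95% interval −0.67 to −0.22, adjusted p 0.0223) on MBP still passed, as 2 of 30 genes (3.31% of 13019 genes). HSD17B7 (0.40) and NSDHL (0.34) followed, with adjusted p of 0.108 and 0.13. On GFAP 0 of 30 passed in the joint limma fit (1.01% of all genes). On SNAP25 16 of 30 passed (31% of all genes), 12 positive and 4 negative. The joint slopes on SNAP25 were 0.89 for HMGCS1, 0.67 for FDPS and −0.89 for ABCA1. SC5DL, NSDHL and INSIG1 were now among the positive ones and CYP46A1 (−0.41) among the negative ones. SQLE, NPC1, SREBF1 and APOE no longer passed on SNAP25 (limma, adjusted p 0.107, 0.108, 0.139 and 0.245). Of the carriers, ABCA1, ABCG1 and SOAT1 still did. Without VHD replicates 3, 4 and 5, 0 of 30 passed on MBP in the joint fit, and 4 genes of the whole table did. There NPC1 had 0.47 (adjusted p 0.174) and CYP46A1 −0.32 (adjusted p 0.598). The same joint fit on MBP called 1 of 30, NPC1, without LD replicate 2, VHD replicate 1 or VHD replicate 3, and 4 of 30 without LD replicate 5. For these fits without 1 animal, counts over all genes are not given.

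Other genes of the pathway, a list of 46 of which 43 were tested, gave 9 called slopes on MBP (7.3% of all genes), 8 positive (4.21%) and 1 negative (3.1%), with a median of 0.05. CYP27A1, the mitochondrial sterol hydroxylase, had a slope of 0.69, SCD, the stearoyl-CoA desaturase, 0.59, LIPA, the lysosomal lipase, 0.51, and NCEH1, a cholesteryl ester hydrolase, −0.38, with adjusted p of 0.000564, 0.00202, 0.00211 and 0.00448. On SNAP25 16 of 43 passed, near the 36.9% of all genes, 7 positive and 9 negative. MSMO1, the sterol methyl oxidase, rose by 0.65 per log2 unit of SNAP25, and PLTP, a phospholipid carrier, and SORL1, a sorting receptor, had −0.50 and −0.40. MSMO1 thus moved with the enzymes among the 30, and PLTP and SORL1 with the carriers. On GFAP 8 of 43 passed (19.9% of all genes), 7 positive and 1 negative, with PLTP at 0.38, MYLIP, a ligase that marks lipoprotein receptors for degradation, at 0.26, CYP27A1 at 0.38 and NCEH1 at −0.24. Of the 43, 0 passed for VHD, HD or BD against LD with limma, and 7, 1 and 1 had an unadjusted p under 0.05, against 8.57%, 3.96% and 3.52% of all genes. For VHD the smallest p belonged to SCD (log2 difference 0.54), ABCA5, a lipid pump (−0.34), ACSS2, which makes acetyl-CoA (0.40), and ELOVL6, which lengthens fatty acids (0.37).

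The 5 genes most like HMGCS1, by Pearson's r of log2 values over 28 libraries among 11248 genes with a mean of at least 50 normalized reads, were FDPS (0.942), MSMO1 (0.934), ACAT2 (0.934), SNX10 (0.925) and CYP51A1 (0.925). Of the other 29 genes, 14 had an r of at least 0.5 with HMGCS1, against 14.03% of the 11248, and the median r was 0.42 against −0.02. Lowest were ABCG1 (−0.82), ABCA1 (−0.69) and CYP46A1 (−0.67), while MVK (0.04), NPC1 (−0.03) and INSIG2 (0.07) lay near 0. For INSIG1 the 5 were WARS (0.878), NEFH (0.867), MVD (0.853), HAPLN4 (0.852) and EIF5A2 (0.850), and 16 of 29 reached an r of at least 0.5, against 8.40% of genes. These values describe points that share library depth and the makeup of the dissected block.

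Exon by exon, no gene of the 30 passed the test of exon usage. The exon table lists all 30 genes with 4 to 89 exons, and limma's diffSplice F test called 0 of 30 for VHD against LD (0.173% of 9817 genes) and 0 of 30 for the slope on MBP (0.509%), with 1 and 0 of the 30 at an unadjusted p under 0.05. The simulated data showed little power for this test, which called 2% of 2-fold changes in 1 exon. With exon values taken relative to their gene in each library, a form added after seeing the data that called 96% of such changes but also 19 of 900 unchanged genes, CYP51A1 passed for VHD against LD (adjusted p = 0.00183; 0.805% of genes passed) and 0 of 30 for the slope on MBP (4.09% of genes). The exon of CYP51A1 on chromosome 7 from 117097671 to 117097766, the least covered, held 2.24% ± 0.464 of the gene's exon reads in VHD (SD, n = 6), 3.49% ± 1.54 in HD (n = 7), 2.10% ± 0.446 in BD (n = 5) and 2.90% ± 1.29 in LD (n = 10), and the ranges overlapped, from 2.15% to 6.53% in LD and from 1.66% to 2.85% in VHD. The exon from 117105578 to 117105752 held 9.74% ± 0.777 in VHD, 9.03% ± 0.810 in HD, 9.61% ± 0.383 in BD and 8.69% ± 0.559 in LD (SD, same n), and its ranges, 8.57% to 11.0% in VHD and 7.96% to 9.35% in LD, overlapped too.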

How the data were processed

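Stranded RNA libraries depleted of ribosomal RNA were sequenced from 28 animals, 1 each, per the labels' protocols. The submitters' processing notes name CASAVA, FastQC, STAR 2.3.0e and edgeR; the build and annotation behind them were not given in the sources. Gene values deposited by the authors are a signal, reads over a gene's exons scaled by the authors to an upper quartile (971 to 988 per library). All its values (100%) lay within 0.02 reads of whole multiples of 1 step per library, so reads were recovered. The deposited exon table holds the same reads per exon, rounded by the authors to whole numbers, treated as a score. Of 30 value columns, 2 matched no labelled sample and were not used. Libraries held 1910514 to 25928489 recovered reads, and 3 reads equal 1.82 to 24.1 normalized reads, which bounds counting error only. Adjusted p-values were computed here with Benjamini-Hochberg adjustment over all genes tested.

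Log2(normalized reads + 1) of genes with at least 10 normalized reads in at least 5 libraries was fitted with limma 3.58.1 (R 4.3.3), with a trend in the variance, on category and cohort, or on log2 MBP, GFAP or SNAP25 and cohort; fold changes are on that scale. Calls used an adjusted p under 0.05. Correlations used 100000 permutations, two-sided, and exon usage diffSplice. edgeR 4.0.16 (quasi-likelihood) and DESeq2 1.42.0 on recovered reads, other pseudocounts, filters, TMM scaling, covariates and leaving out libraries were alternatives. On simulated data of 13022 genes, the VHD against LD test recovered 76% of changes of log2 1 and 35% of log2 0.585, with 4 false calls; the slope on MBP recovered 83% at 1 and 55% at 0.5, with 7.

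The 30 genes and all lists were chosen with earlier results of these data known. Values are given in full for the 8 genes with the smallest p on MBP and the 4 with the smallest p in each comparison; for other pathway genes, the 4 with the smallest p are named in the comparisons described, except 1 that is not reported here. Marker lists covered myelin, oligodendrocyte precursors, astrocytes, neurons, microglia, endothelium, choroid plexus and ependyma, CeA and striatum, and cholinergic cells. For VHD the report describes those of myelin, astrocytes, CeA and striatum, and cholinergic cells. These are not all the lists with the largest medians. The median VHD against LD log2 differences were 0.44 (myelin), 0.25 (precursors), 0.16 (astrocytes), 0.01 (neurons), 0.18 (microglia), 0.12 (endothelium), 0.02 (choroid plexus and ependyma), −0.57 (CeA and striatum) and 1.16 (cholinergic). Each animal is 1 library, so p-values measure the spread between animals.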

Additional observations from a re-analysis of the deposited data

Results flagged for a closer look

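In 9 of 120 gene and category groups (7.5%), 1 library lay far from the others of its category by Dixon's test, where chance flags about 1 in 20 groups. VHD replicate 1 was low in ACAT2 (1612 normalized reads, the next 1983) and in FDFT1 (1856, the next 2245), and VHD replicate 3, one of the libraries high in CHAT, was high in MVK (345). HD replicate 5, the library with the highest HMGCS1 and the lowest ABCA1, was high in PMVK (544) and SC5DL (4081). HD replicate 6 was high in LSS (599), and HD replicate 1, a library under 8000000 reads, was low in SCAP (1677). BD replicate 1, the shallowest library, was high in INSIG2 (778, the next 585). LD replicate 8, the animal with the lowest MBP, was high in CYP46A1 (3726, the next 2566).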

How the results depend on the processing

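No paired analysis was possible because the labels give no replicate numbers shared between categories. The counts of genes past the test for VHD, HD and BD against LD, for the category and cohort F tests, and for VHD against LD with MBP as a term were 0 in every alternative run, and from 0 to 0 with each animal left out in turn. The count for the slope on MBP was 1 with category as a further term and 0 without the libraries with at least 1000 normalized reads of CHAT, a choice made after seeing the data, as were the other alternatives without these libraries. Without them the count was 1 for the slope on GFAP (1150 over all genes) and 0 for the joint slope on MBP (4 over all genes). The INSIG1 slope on MBP reversed to −0.15 there. STARD4 passed on MBP with age in place of cohort or with no cohort term (adjusted p 0.0413 in limma in both), SREBF1 with marker lists (slope 0.53, adjusted p 0.0205), and NPC2 no longer passed on GFAP with marker lists (adjusted p 0.192). Without libraries under 8000000 reads the slope on SNAP25 called 10, and 4104 over all genes. Genes with an r of at least 0.5 with MBP numbered 1 without the pair of libraries farthest from the median, and exon usage for VHD against LD called 1 with exons relative to their gene, also chosen after seeing the data. With each animal left out in turn, the counts ranged from 1 to 4 for the slope on MBP, 2 to 6 on GFAP, 13 to 17 on SNAP25, 1 to 4 for the joint slope on MBP and 1 to 3 for the correlation. Counts over all genes are not given for these runs. Over all genes, the slope on MBP called 951, with 341 under the category term, 1461 with DESeq2 and 1796 with the myelin list in place of MBP. The cause of these shifts was not tested, apart from the fewer samples in some fits. At the lowest depth, that of BD replicate 1, 3 reads equal 24.1 normalized reads, and all members lay above that. MVK and HSD17B7, both at 200.4 normalized reads in BD replicate 1, rested on few reads there, so depth limits such values.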
